A study of Homo sapiens with 6 samples.

Results

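Of the genes that make and load the peptides shown on MHC class I molecules, 9 were followed in H23 cells, an established human lung adenocarcinoma cell line. They were taken by name from the 27968 genes of each deposited table: the immunoproteasome subunits PSMB8, PSMB9 and PSMB10, the peptide transporter and its partner TAP1, TAP2 and TAPBP, and the class I chains HLA-B, HLA-C and B2M. All 9 passed the filter on low counts, as did 15072 genes in all. One group of 3 libraries came from cells transfected with a control siRNA, and the other group of 3 from cells transfected with the HOTAIR-N siRNA, which is directed at the long non-coding RNA HOTAIR. Each library was an independent transfection made with RNAiMAX, a lipid reagent, and total RNA was taken 48 h later, so every cell compared had been through transfection with some siRNA. Only 1 siRNA against HOTAIR-N and 1 cell line were compared, and untransfected cells were not analysed here.

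The proteasome cuts cytosolic proteins into peptides. In cells exposed to interferon the subunits encoded by PSMB8, PSMB9 and PSMB10 take the places of PSMB5, PSMB6 and PSMB7 in its catalytic core, and the resulting immunoproteasome favours peptide ends that class I molecules bind. TAP1 and TAP2 pair to pump these peptides into the endoplasmic reticulum, where TAPBP (tapasin) holds the empty class I heavy chain, paired with the light chain B2M, next to the transporter until a peptide is bound. Tumour cells of the lung and other tissues often lower these genes and so become less visible to cytotoxic T cells.

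The libraries held 32715361 to 36578681 expected counts, which are the reads RSEM assigned to genes. HOTAIR itself had 169, 148 and 202 counts with control siRNA and 88, 74 and 82 with HOTAIR-N siRNA, a log2 fold change of -1.04 (SE 0.14, adjusted p = 1.32e-05 by edgeR's quasi-likelihood test). Of the epithelial markers, the keratins KRT8 and KRT18 averaged 1505 and 2592 TPM in controls (TPM is a level adjusted for transcript length and scaled within each library) and 1570 and 1535 TPM after HOTAIR-N siRNA. KRT19 (5.18 and 5.29 TPM), KRT7 (1.31 and 2.64 TPM) and EPCAM (6.88 and 7.72 TPM) were low, and the lung surfactant gene SFTPB stayed at 0.05 TPM or below. Of 14 immune cell markers 11 were under 1 TPM in all libraries, CD3E and MS4A1 were at 0 throughout, and the summed level of the list was 13.1 to 14.6 TPM with control siRNA and 12.2 to 13.3 TPM with HOTAIR-N siRNA. In bulk RNA such as this, a change in the share of cells that use a gene and a change in RNA per cell cannot be told apart. Differences were common in the comparison as a whole: 57.5% of tested genes passed an adjusted p of 0.05, 28.7% higher and 28.8% lower with HOTAIR-N siRNA. In 62.9% of tested genes the 2 groups did not overlap in counts scaled to library size.

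With HOTAIR-N siRNA 8 of the 9 genes rose, none fell, and TAP1 did not pass. The count of 0 lower genes was the same at an unadjusted p under 0.05 and with DESeq2 and limma-voom. Against this 8 of 9 stand the 28.7% of all tested genes that rose, and the median log2 fold change of the 9 was 0.68 where that of all tested genes was 0.01. The 9 were chosen with earlier results of these data known, so this contrast describes them and is not a test. The class I heavy chains moved most, HLA-B by 2.86-fold and HLA-C by 2.32-fold in TPM, followed by PSMB8 (2.12-fold) and TAPBP (2.06-fold). PSMB10, PSMB9, B2M and TAP2 rose by 1.55, 1.41, 1.37 and 1.29-fold. That left 4 of the 9 at least 2-fold higher, a size that 4.32% of tested genes reached with a call.

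**Figure D1:**
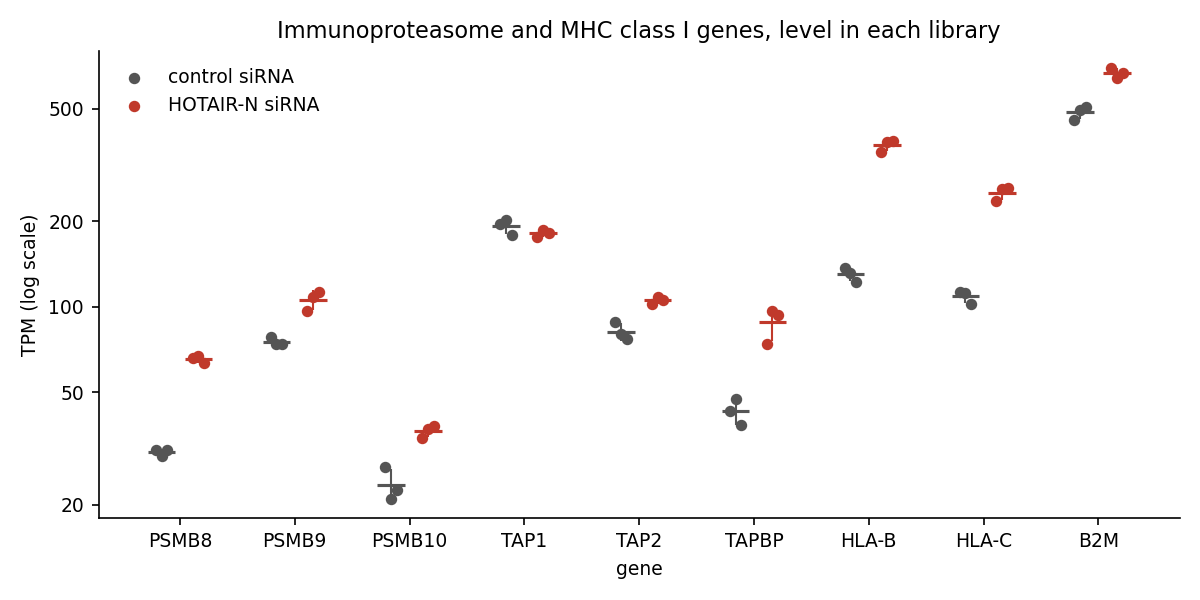
Level of each gene in TPM on a log axis, with 1 point per library, the mean as a horizontal line and the SD as a vertical line, for 3 control siRNA and 3 HOTAIR-N siRNA libraries. The groups overlap at TAP1, and at the other genes every HOTAIR-N point lies above every control point. Over all tested genes the groups did not overlap in 62.9%, in either direction and in counts scaled to library size, not TPM.

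The start regions of these genes are shown next because 8 of the 9 genes rose and several are known targets of interferon-regulated factors. Windows of 300 bases, 250 before and 50 after each annotated start, came from RefSeq on GRCh38.p14. All 9 genes matched by symbol, with 11 windows, since PSMB8 and TAP1 have a pair of starts each. The interferon-stimulated response element (ISRE) was searched on both strands as GAAA, any 2 bases and GAAA, and was present in 6 of the 9 genes and in 3.57% of all 35116 windows. The shorter form, GAA, any 2 bases and GAAA, can overlap the first and was present in PSMB8, TAP2, HLA-B and HLA-C and in 7.66% of windows. The counts among the 9 are by gene, and a gene can have several windows, whereas the percentages are by window. Of tested genes with a window, 430 had the ISRE and 10838 did not. For the shorter form these counts were 907 and 10361. Capitals mark the match, each strand is that of the gene, and a match on the opposite strand reads as TTTC. For HLA-B and HLA-C the shorter form is shown.
PSMB8 (start of NM_148919), chr6:32844032-32844061, minus strand: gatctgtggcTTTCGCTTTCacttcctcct
PSMB10, chr16:67936852-67936881, minus strand: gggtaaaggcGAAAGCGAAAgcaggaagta
TAP1 (upstream start), chr6:32853813-32853848, minus strand: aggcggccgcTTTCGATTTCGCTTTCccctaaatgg
TAP2, chr6:32838778-32838807, minus strand: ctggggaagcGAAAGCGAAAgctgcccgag
TAPBP, chr6:33314073-33314108, minus strand: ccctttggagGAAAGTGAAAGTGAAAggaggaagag
HLA-B, chr6:31357316-31357344, minus strand: ctcccctgagTTTCACTTCttctcccaac
HLA-C, chr6:31272225-31272253, minus strand: ctcccctgagTTTCACTTCtcccaacctg
B2M, chr15:44711363-44711398, plus strand: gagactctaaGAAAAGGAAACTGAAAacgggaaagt
TAP1, TAPBP and B2M each carried a pair of overlapping matches. PSMB10 and TAP2 held the same 10 bases, and PSMB8 and the later match of the TAP1 pair held them on the opposite strand. The HLA-B and HLA-C stretches share their first 20 bases, the match included. In PSMB8 and TAP2 the shorter form overlaps the ISRE and is partly in lower case. That of PSMB8 has the same letters as the match in HLA-B and HLA-C.

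The TAP1 region before its upstream start is given whole, since TAP1 was the exception among the levels. It lies at chr6:32853705-32853954 on the minus strand of GRCh38.p14, with the ISRE pair first and an NF-kB match after it in capitals.
TAP1, 250 bases before the start: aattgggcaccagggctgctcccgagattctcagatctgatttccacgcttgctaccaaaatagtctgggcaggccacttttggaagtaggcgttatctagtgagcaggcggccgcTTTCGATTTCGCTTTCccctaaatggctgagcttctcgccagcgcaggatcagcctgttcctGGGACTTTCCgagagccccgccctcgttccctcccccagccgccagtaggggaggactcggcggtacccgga
PSMB9 is transcribed the other way, its start 488 bases from this one, and the windows of the 2 genes share 13 bases. The PSMB9 window held no match to the ISRE, its shorter form or the NF-kB motif, only a CCAAT and a TGACG. NF-kB matches were found in TAP1, TAPBP, HLA-B, HLA-C and B2M, 5 of the 9, and in 11.3% of all windows. CCAAT, the box bound by NF-Y, was in 5 of 9 and 34.6% of windows. TGACG, part of the site for CREB and ATF factors, was in 6 of 9 and 24.6% of windows. Here too the counts among the 9 are by gene and the percentages by window. By tested gene with a window, NF-kB was matched in 1976 and not in 9292. The same counts were 4812 and 6456 for CCAAT, and 4495 and 6773 for TGACG. Among all tested genes with a window, these genes included, 430 had an ISRE and 39.1% of them rose, with a median log2 fold change of 0.05. Of the 10838 without one 27.8% rose, with a median of -0.01. With and without a match, the share that rose was 31.6% and 27.9% for the shorter form, 30.2% and 27.8% for NF-kB, 27.3% and 28.9% for CCAAT, and 28.4% and 28.1% for TGACG. A match is a match of letters, and binding was not measured.

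**Figure D2:**
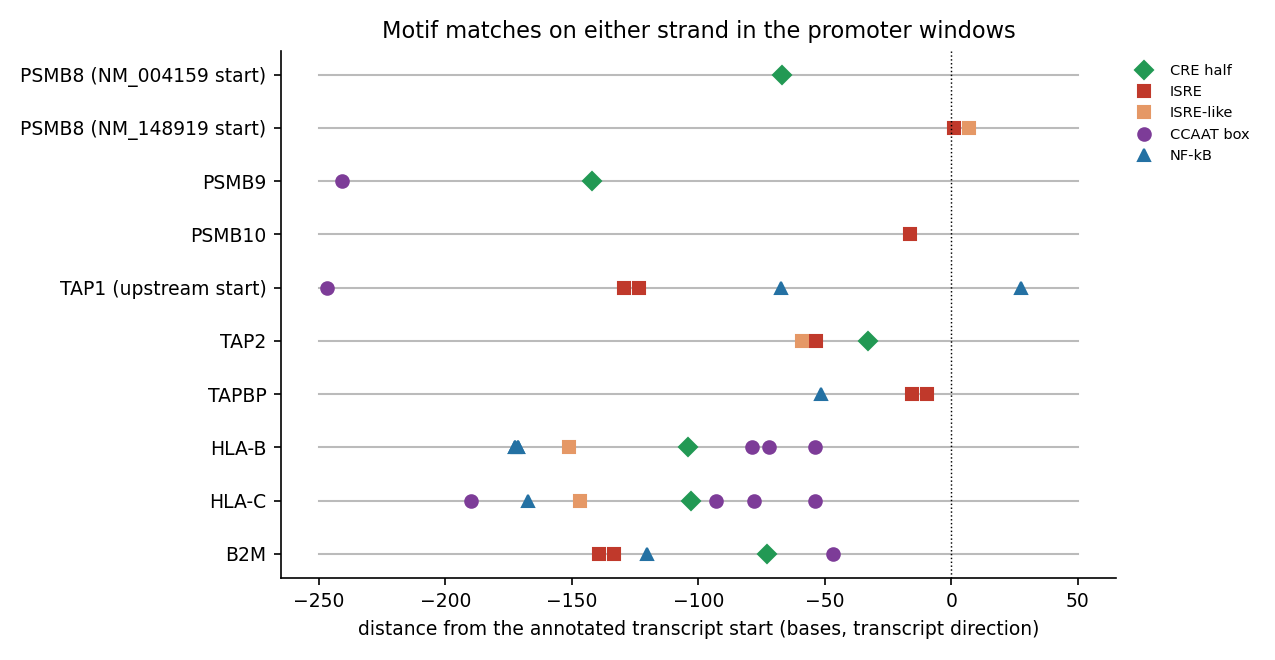
Position of each motif match, on either strand, in the 300-base windows, as the distance in bases from the annotated start (dotted line) in the direction of transcription. The ISRE matches of PSMB8, PSMB10 and TAPBP lie within 21 bases of the start, those of TAP1 and B2M between 119 and 144 bases before it, and the downstream TAP1 window, with no match, is not drawn.

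Among the immunoproteasome subunits, PSMB8 (the chymotrypsin-like subunit LMP7) had 31.2, 29.8 and 31.3 TPM with control siRNA and 65.7, 67.2 and 63.1 TPM with HOTAIR-N siRNA. All 3 treated libraries lay above all controls, and the libraries of a group were close to each other. Its log2 fold change was 1.11 (SE 0.07, 95% interval 0.96 to 1.26, adjusted p = 6.43e-09, edgeR quasi-likelihood test). PSMB9 (LMP2) had 78.2, 73.8 and 74.2 TPM in the controls and 96.6, 109 and 113 TPM after HOTAIR-N siRNA. The groups were apart, with the first treated library the lowest of the treated ones. The log2 fold change of PSMB9 was 0.54 (SE 0.07, 95% interval 0.39 to 0.69, adjusted p = 1.42e-05, edgeR). PSMB10 (MECL-1) was the lowest of the 9 genes, at 27.2, 21.0 and 22.5 TPM against 34.5, 36.9 and 38.1 TPM. Its highest control stood above the other 2 controls but below every treated library. The log2 fold change of PSMB10 was 0.68 (SE 0.10, 95% interval 0.46 to 0.90, adjusted p = 4.22e-05, edgeR), on 305 to 604 counts a library.

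The constitutive subunits that these 3 replace did not pass. PSMB5 (the partner of PSMB8) had 511 ± 14.5 TPM (SD, n = 3) in controls and 500 ± 16.8 TPM after HOTAIR-N siRNA, a log2 fold change of 0.03. PSMB6, the partner of PSMB9, had a log2 fold change of -0.10 (adjusted p = 0.168, edgeR), and PSMB7, the partner of PSMB10, one of 0.14 (adjusted p = 0.0546, edgeR). PSMB6 passed as lower on the log2 TPM scale, at -0.15, and without control replicate 2, at -0.16. PSMB7 passed as higher under upper-quartile scaling, unscaled library sizes or a stricter filter, at 0.15 to 0.16, and without control replicate 1, at 0.17.

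Within a library the PSMB8 to PSMB5 ratio of TPM was 0.0594, 0.0602 and 0.0610 in controls and 0.127, 0.139 and 0.126 after HOTAIR-N siRNA. PSMB8 transcripts made up 5.68% ± 0.0732 of the pair in controls and 11.6% ± 0.576 (SD, n = 3) in treated cells. The PSMB9 to PSMB6 ratio was 0.127, 0.133 and 0.127 against 0.183, 0.207 and 0.213, so that PSMB9 went from 11.4% to 16.7% of its pair. The PSMB10 to PSMB7 ratio was 0.0661, 0.0536 and 0.0550 against 0.0779, 0.0874 and 0.0904, or 5.50% and 7.85% of the pair. All 3 ratios were higher in every treated library, by 1.12, 0.64 and 0.55 on the log2 scale. The two-sided exact permutation p was 0.1 for each, and 0.1 after Benjamini-Hochberg adjustment over the 6 ratios computed, the smallest value that 3 libraries against 3 can give. In both groups the constitutive transcript was the more abundant of each pair.

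**Figure D3:**
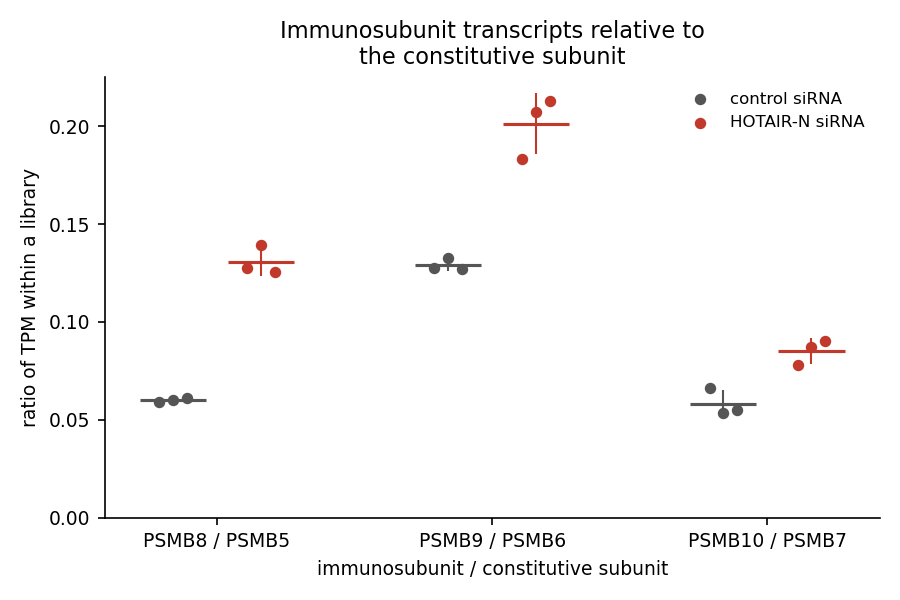
Ratio of the TPM of each immunosubunit to that of its constitutive counterpart, with 1 point per library, the mean as a horizontal line and the SD as a vertical line. The 3 HOTAIR-N siRNA libraries lie above the 3 control siRNA libraries at each pair, with the PSMB8 to PSMB5 mean going from 0.0602 to 0.131.

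Of the transport and loading genes, TAP1 had 196, 203 and 179 TPM in controls and 176, 187 and 183 TPM after HOTAIR-N siRNA. The ranges overlapped, and the log2 fold change was -0.02 (SE 0.06, adjusted p = 0.801, edgeR). The 95% interval ran from -0.15 to 0.11, on 7664 to 9005 counts a library. TAP2, its partner in the transporter, had 88.4, 79.8 and 76.8 TPM against 102, 108 and 106 TPM. The treated libraries were all above the controls, with a log2 fold change of 0.34 (SE 0.06, 95% interval 0.23 to 0.46, adjusted p = 8.67e-05, edgeR). The TAP1 to TAP2 ratio, added after the values were seen, was 2.21, 2.54 and 2.33 in controls and 1.73 in each treated library, an exact permutation p of 0.1. The PSMB9 to TAP1 ratio, added likewise for the pair that shares a start region, rose from a mean of 0.393 to 0.582, again with an exact permutation p of 0.1. TAPBP had 42.8, 47.2 and 38.3 TPM in controls and 74.2, 96.2 and 93.8 TPM after HOTAIR-N siRNA. The first treated library was the lowest of its group but well above every control. The log2 fold change of TAPBP was 1.10 (SE 0.09, 95% interval 0.92 to 1.28, adjusted p = 5.87e-08, edgeR).

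Of the class I chains, HLA-B had 137, 131 and 123 TPM in controls and 351, 380 and 385 TPM after HOTAIR-N siRNA. The lowest treated library was far above the highest control. The log2 fold change of HLA-B was 1.56 (SE 0.06, 95% interval 1.43 to 1.69, adjusted p = 7.21e-11, edgeR). HLA-C had 113, 112 and 102 TPM against 235, 259 and 263 TPM, with no overlap. Its log2 fold change was 1.26 (SE 0.06, 95% interval 1.13 to 1.39, adjusted p = 4.85e-10, edgeR). Since the HLA heavy chain genes are near-identical in long stretches, the division of reads between them is uncertain.

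B2M, the light chain of all these heavy chains, is outside the MHC on chromosome 15. It had 456, 495 and 505 TPM in controls and 694, 640 and 666 TPM after HOTAIR-N siRNA, with no overlap. The log2 fold change was 0.51 (SE 0.06, 95% interval 0.39 to 0.63, adjusted p = 2.08e-06, edgeR).

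B2M was the most abundant of the 9 in both groups. In controls TAP1 came next, then HLA-B, HLA-C, TAP2 and PSMB9, TAPBP, PSMB8 and PSMB10. After HOTAIR-N siRNA HLA-B and HLA-C stood above TAP1, and the rest kept their places apart from TAP2 and PSMB9. The ranges of TAP2 and PSMB9 overlapped in both groups, and all other neighbours in the order were apart over the 3 libraries of their group.

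Other parts of the pathway are given by list, to be read against the 28.7% of tested genes that rose and the 28.8% that fell. These lists too were chosen with earlier results of the data known. Of 11 further 20S core subunits, the shared body of both proteasome forms, 3 rose and 1 fell, 7 did not pass, and the median log2 fold change was 0.09. PSMB2 rose by 0.47 and PSMA6 by 0.34 (SE 0.05 and 0.06). PSMA3 passed at 0.19, but not on the log2 TPM scale (0.14), without control replicate 2 (0.15) or without HOTAIR-N replicate 1 (0.14). PSMB1 was the one that fell, by 0.14 on the log2 scale. Of 10 activators and assembly factors, 5 rose, 1 fell and 4 did not pass. PSME1, a subunit of the interferon-inducible PA28 cap, rose from 130, 141 and 132 TPM to 232, 242 and 238 TPM, a log2 fold change of 0.87 (SE 0.05, adjusted p = 5.98e-09, edgeR). PSME2, the other PA28 subunit, rose by 0.31, while PSME3, which forms a nuclear cap, fell by 0.21 on the log2 scale. The assembly factors PSMG1 and POMP, which help to build the core, rose by 0.53 and 0.39.

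In the endoplasmic reticulum list of 12 genes 7 rose, with 2 lower and 3 not past the threshold. ERAP1, an aminopeptidase that trims peptides to class I length, had 15.2, 18.2 and 15.8 TPM in controls and 34.0, 33.3 and 34.6 TPM after HOTAIR-N siRNA. The treated group lay entirely above the controls, with a log2 fold change of 1.10 (SE 0.06, adjusted p = 2.45e-09, edgeR). TAPBPL, the tapasin-like peptide editor, rose by 1.25 (SE 0.11), from 5.02 to 11.6 TPM on average. The chaperone CALR, which binds folding heavy chains, rose by 0.58 (SE 0.05). HSPA5, a general chaperone of that compartment, and the protease gene SPPL3 were the 2 that fell, by 0.42 and 0.41 on the log2 scale.

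Of 15 tested genes among 20 further class I and class I-like heavy chains, 9 rose, 3 fell and 3 did not pass. HLA-F, a non-classical chain, had 2.45, 2.65 and 2.78 TPM in controls and 9.35, 12.6 and 10.3 TPM after HOTAIR-N siRNA, a log2 fold change of 2.04 (SE 0.14, adjusted p = 1.22e-08, edgeR). HLA-E, a ligand of inhibitory receptors on natural killer cells, rose by 0.38 (SE 0.06), and PROCR, a class I-like receptor of protein C, by 1.12 (SE 0.06). MICB, a stress ligand of the activating receptor NKG2D, went the other way, from 61.4, 64.0 and 64.9 TPM to 26.0, 24.3 and 25.0 TPM. That was a log2 fold change of -1.29 (SE 0.06, adjusted p = 3.52e-10, edgeR). The other 2 that fell were ULBP1, a ligand of the same receptor, and HFE, an iron regulator, at -0.51 and -0.28. MICA rose by 0.54, so the NKG2D ligands did not move together. HLA-G was listed at 0 in all 6 libraries.

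**Figure D4:**
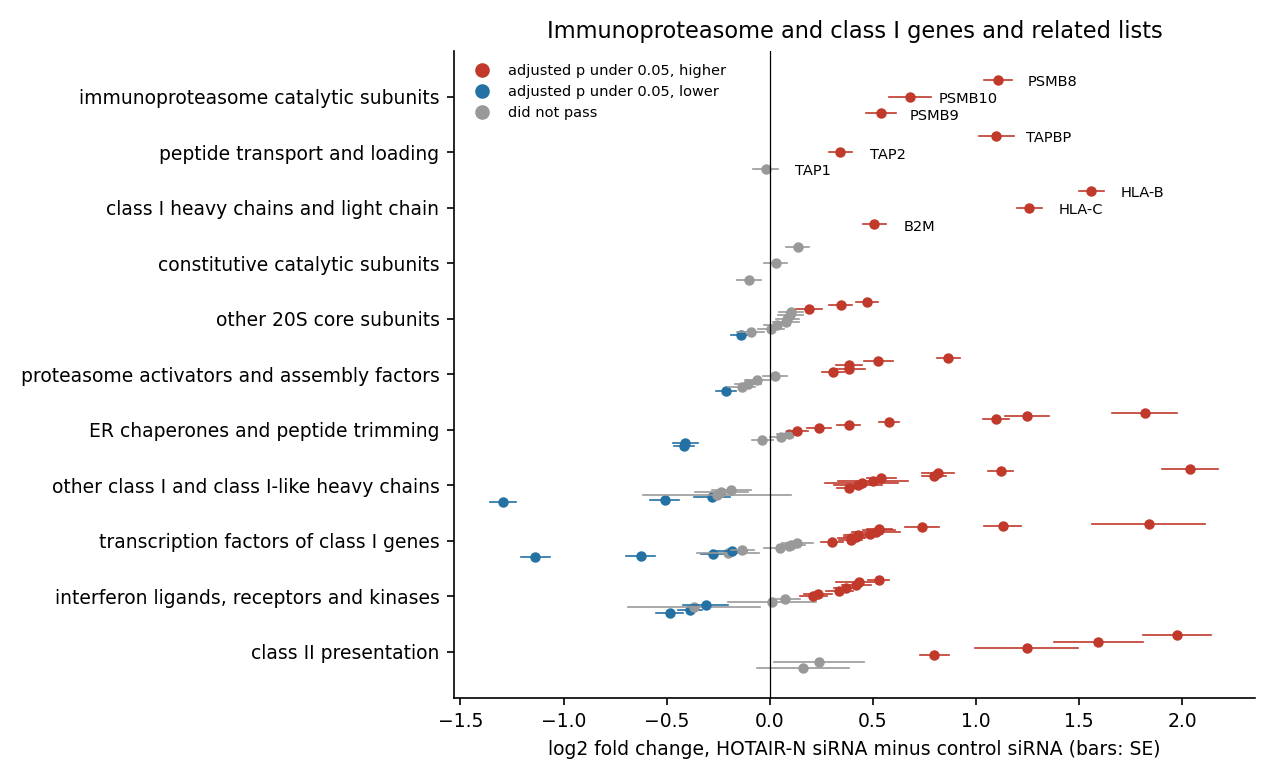
Log2 fold change (HOTAIR-N siRNA minus control siRNA) of every tested gene in 11 lists, with bars of 1 SE, coloured by whether and in which direction it passed an adjusted p of 0.05. The upper 3 rows hold the 9 named genes, of which TAP1 sits at the zero line, and the row of constitutive catalytic subunits lies between -0.10 and 0.14.

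Among 22 transcription factors that act on class I genes, 12 rose and 4 fell, 6 did not pass, and the median log2 fold change was 0.35. NLRC5, the transactivator of class I genes, was scarce in both groups: it had 8, 11 and 9 counts in controls and 29, 39 and 30 after HOTAIR-N siRNA. Its log2 fold change was 1.84 (SE 0.27, adjusted p = 4.22e-05, edgeR), and 0.41 on the log2(TPM + 0.5) scale, which understates changes at such low levels. The control libraries alone would not have passed NLRC5 through the filter on low counts. Its place among the tested genes thus depended on the group where it was higher, and under the stricter filter it was not tested. IRF2, which binds the ISRE, rose by 1.13 (SE 0.09), from 5.96 to 12.7 TPM. IRF1, an interferon-induced activator of the same element, rose by 0.40 (SE 0.06), from 13.7 to 17.2 TPM. RFX5, a subunit of the complex on class I and class II promoters, rose by 0.39, whereas its partner RFXANK fell by 0.63 on the log2 scale. ATF1, which binds CRE sites, fell by 1.14 on the log2 scale (SE 0.07), from 36.6 to 16.1 TPM.

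Of the 20 interferon ligands, receptors, kinases and their inhibitors, 13 were tested, and 7 rose, 3 fell and 3 did not pass. The ligand genes IFNB1, IFNG, IFNL1, IFNL2 and IFNK were listed at 0 in all 6 libraries, and IFNA1 and IFNL3 did not exceed 0.12 TPM in any of them. IFNE, the ligand gene that was tested, averaged 0.617 TPM in controls and 0.463 TPM after HOTAIR-N siRNA, and its log2 fold change of -0.37 (SE 0.32) did not pass. The kinase gene JAK1 rose by 0.53 (SE 0.05). PTPN2, a phosphatase that restrains this signalling, and the receptor chain IFNGR2 fell by 0.48 and 0.39 on the log2 scale.

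The isoform tables allowed the transcripts of the 9 genes to be followed. They listed 101 transcript rows for 16 RefSeq accessions, because MHC-region genes appear as up to 8 copies of an accession between which RSEM had divided the reads. Of the 56 rows tested, 27 rose and none fell (31 and 0 at an unadjusted p under 0.05), against 9.39% and 10.1% of the 32627 rows tested in all. The count of 27 was 9 to 16 with any 1 library left out and 7 with the replicate number as a block. The 27 came from every gene but TAP1, of which none of 14 tested rows passed. PSMB10 and B2M, outside the MHC, had 1 row each, and both rows rose. Since the count of rows depends on how reads were divided between copies, copies of an accession were also summed, a step added after the data were seen. Then 10 of the 16 accessions rose, against 9.2% of the 32042 tested in all, and the other 6 did not pass. The 10 include the pair of HLA-C accessions, which had equal values in every library and so count the same values again.

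PSMB8 has a pair of transcripts with different first exons, of which NM_148919 starts at the ISRE shown above. With copies summed it had 22.7, 21.8 and 23.8 TPM in controls and 53.0, 51.4 and 48.3 TPM after HOTAIR-N siRNA, a log2 fold change of 1.21 (SE 0.08, adjusted p = 0.000842, edgeR). The other, NM_004159, had 8.48, 8.01 and 7.47 TPM against 12.7, 15.7 and 14.7 TPM, a log2 fold change of 0.90 (SE 0.13, adjusted p = 0.00645, edgeR). Both transcripts were apart between the groups. The share of NM_148919 in the gene was 74.0% ± 1.82 and 78.0% ± 2.34 (SD, n = 3), and a change in isoform use did not pass (adjusted p = 0.141 on the rows as deposited and 0.99999 with copies summed, edgeR's diffSpliceDGE). The deposited rows passed for PSMB8 in the fit with the replicate number as a block (adjusted p = 0.0267) and without control replicate 2 (adjusted p = 5.1e-06). Under that block NM_004159 had an adjusted p of 0.0638 with a log2 fold change of 0.90.

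Neither TAP1 transcript passed: NM_000593 had 105 ± 17.6 TPM in controls and 107 ± 8.25 TPM after HOTAIR-N siRNA, and NM_001292022 had 87.8 ± 13.0 and 75.0 ± 2.96 TPM (SD, n = 3). NM_001292022 passed as lower without control replicate 1, at -0.28 (adjusted p = 0.0291, edgeR). Of the 3 TAP2 transcripts only NM_018833 passed, from 45.6 to 64.4 TPM, a log2 fold change of 0.54 (SE 0.13, adjusted p = 0.0333, edgeR). TAPBP was read mainly from NM_003190, which made up 89.6% and 95.1% of the gene and rose from 38.2 to 83.6 TPM, a log2 fold change of 1.18 (SE 0.11). The 2 HLA-C accessions were given equal values in every library, so they carry no separate information. Isoform use could be tested in 7 of the 9 genes on the deposited rows (not PSMB10 and B2M) and in 5 with copies summed (PSMB8, TAP1, TAP2, TAPBP and HLA-C). In both fits 0 passed (at an unadjusted p under 0.05, only PSMB8 did, on the deposited rows), where 4.13% and 4.21% of genes with several isoforms passed.

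**Figure D5:**
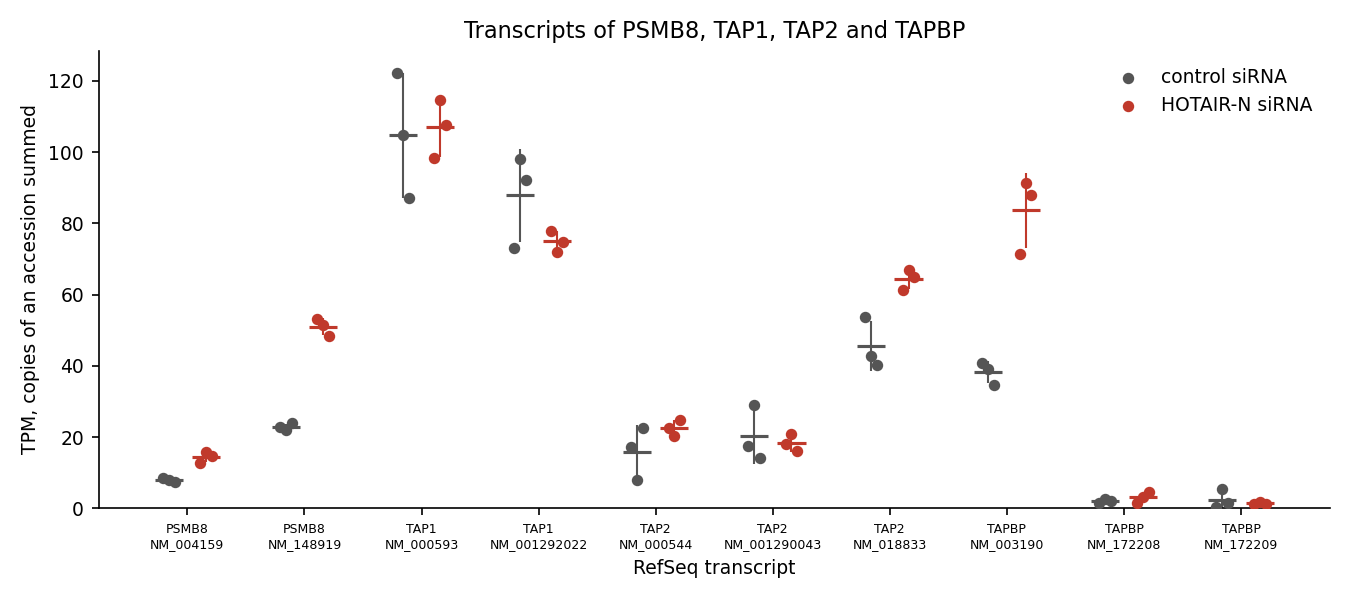
Level in TPM of each RefSeq transcript of PSMB8, TAP1, TAP2 and TAPBP, with copies of an accession summed, 1 point per library, the mean as a horizontal line and the SD as a vertical line. Both PSMB8 transcripts and the main TAPBP transcript are higher in all HOTAIR-N siRNA libraries, and the TAP1 transcripts overlap between groups.

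The profile of the 9 genes over the 6 libraries was also described as the mean of their standardised log2 CPM (counts scaled to library size). TAP1 had a Pearson r of 0.09 with this mean profile, and the other 8 had 0.91 to 0.99, each gene being part of the mean. Of the 12316 other genes whose log2 CPM averaged 1 or more, those most like it were MAFK (r = 0.9996), TUFM, ABHD16A, HLA-H and CSRNP1. HLA-H, a class I pseudogene that shares sequence with the classical chains, rose by 0.82 (SE 0.08). ABHD16A rose by 0.44 (SE 0.06). With 6 libraries in 2 groups, 217 genes reached an r over 0.99.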

How the data were processed

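RNA was sequenced from 6 libraries, 3 per siRNA, with a stranded total RNA kit and ribosomal RNA depletion, per the labels' protocols. STAR 2.6.0c, RSEM 1.3.0 and hg19 are named in the submitters' processing notes; how strand was set in counting, and which annotation was used, is not given in the sources used here. PSMB8 and its antisense neighbour therefore cannot be told apart with certainty. Whether TAPBP and its neighbour RGL2 share reads was not tested. Per the file headers the deposited tables hold expected counts (RSEM's estimated reads), TPM, FPKM and, for isoforms, the percent of the gene. FPKM and that percent column were not used, and shares of transcripts were computed from the deposited TPM values.

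In R 4.3.3, rounded expected counts of all 15072 genes that passed filterByExpr went into edgeR 4.0.16 (TMM scaling, robust quasi-likelihood test, Benjamini-Hochberg adjustment, threshold 0.05). A positive log2 fold change means higher with HOTAIR-N siRNA, and its SE and 95% interval come from the fit. Isoforms, by row and with copies summed, were tested likewise, isoform use with diffSpliceDGE and Simes p-values, and TPM ratios with exact two-sided permutation tests. The edgeR fits of genes and isoforms and the test of isoform use were tried on simulated counts. The 3 transfections per siRNA are independent per the series' design text.

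The genes and lists were chosen with earlier results of these data known. Named beside the 9 genes were, by rule, up to 3 tested genes of each list with the smallest p, PSMB5, PSMB6, PSMB7, HLA-E, HLA-F, NLRC5, IRF1, RFX5, HOTAIR and the 5 genes most like the mean profile. A few further genes of this rule, and 1 of the 6 ratios, are not reported here. Others (PSMB1, PSME2, PSME3, HSPA5, SPPL3, MICA, ULBP1, HFE, HLA-G, IFNB1 and the other interferon genes, KRT7, KRT8, KRT19, EPCAM, SFTPB, CD3E, MS4A1 and the genes under other observations) were chosen after their values were seen. The other settings tried were library sizes scaled by RLE or by upper quartile or left unscaled, a stricter filter or none (20 counts and 1 CPM), the replicate number as a block, DESeq2 1.42.0, limma-voom and limma-trend (limma 3.58.1) on log2(TPM + 0.5) and log2(TPM + 0.1), edgeR without robust fitting, a test against a fold of 1.5, and each library left out. Start windows came from RefSeq on GRCh38.p14, with PSMB8 starts tied to transcripts through GENCODE release 29. No coordinates of that build were joined to the hg19 tables.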

Additional observations from a re-analysis of the deposited data

How the results depend on the processing

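PSMB8, TAPBP, HLA-B and HLA-C kept their direction and call in all 18 alternatives, as did the missing call of TAP1 (-0.08 to 0.04). PSMB9 (0.54), PSMB10 (0.68), TAP2 (0.34) and B2M (0.51) kept them in 17: tested against a fold of 1.5 they no longer passed, with adjusted p = 1, 0.39, 1 and 1 by edgeR. That test left 4 of the 9 genes called higher, and 1700 of all genes, 830 of them higher, which is its construction. Other alternatives called 7503 to 9234 genes. The count of transcript rows of the 9 genes called, 27, was 13 without a filter, 7 with the replicate number as a block, 10 with copies summed, and 9 to 16 with each library left out in turn; the copies summed are fewer features, and for the rest the cause was not tested. The count of genes called for isoform use, 0, was 1 (PSMB8) with the replicate block and 0 to 1 with a library left out. The 3 subunit ratios kept their direction in all 8 alternatives, at 1.07 to 1.15, 0.59 to 0.70 and 0.50 to 0.65 on the log2 scale. Paired by replicate number they had an exact permutation p of 0.25, the smallest that 3 pairs allow. Same-numbered libraries did not deviate together (r = -0.12, 0.02 and -0.04, and -0.14 to 0.17 for libraries of different number). No pairing by number was thus seen, but 3 libraries a group cannot show that there was none. The replicate block changed no call of the 9 genes (HLA-B 1.56, TAP2 0.34). The largest shift of the median log2 fold change of all genes was -0.041, on log2(TPM + 0.1). Upper-quartile or unscaled sizes gave 53.1% of calls as higher, the log2 TPM scale 44.6% and 44.5%, and the fit as reported 49.9%. Depth limits NLRC5, with 8 to 39 counts a library, and reads shared by HLA genes or by copies of one accession limit the split between them.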

Other observations

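Class II presentation genes were mostly silent: 11 of 17 were under 1 TPM in all libraries, among them the transactivator CIITA (0.02 TPM at most), the invariant chain CD74 (0.14 TPM at most) and HLA-DRA (0.05 TPM at most). Of the 6 tested, 4 rose and 2 did not pass, where 28.7% of all tested genes rose and 28.8% fell. HLA-DQB1 had 23, 24 and 27 counts in controls and 90, 90 and 103 after HOTAIR-N siRNA, a log2 fold change of 1.97 (SE 0.16, adjusted p = 1.2e-07, edgeR). The lysosomal protease gene CTSS rose by 1.59 (SE 0.21) and by 0.84 on the log2(TPM + 0.5) scale, from 0.353 to 1.04 TPM. IFI30, a lysosomal thiol reductase, rose by 0.80 (SE 0.07), from 47.5 to 80.0 TPM, and HLA-DMB by 1.25 (SE 0.25).

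Genes next to or near the immunoproteasome and transporter genes did not all follow them. PSMB8-AS1, antisense to the start of PSMB8, had 8.83 to 18.7 counts in controls and 27.5 to 36.1 after HOTAIR-N siRNA. Its log2 fold change was 1.28 (SE 0.28, adjusted p = 0.00103, edgeR). As with NLRC5, the control libraries alone would not have passed this gene through the filter on low counts. Next to TAPBP, ZBTB22 rose by 0.76 and DAXX by 0.39, whereas RGL2 had 0.01 and did not pass. In the same region HLA-DMB rose by 1.25, while HLA-DMA (0.16) and BRD2 (-0.03) did not pass. HLA-DOB, beside TAP2, was at 0.14 TPM or below. The thymus subunit PSMB11 did not exceed 0.06 TPM.

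Among markers of epithelial and lung cancer cells, 4 of 9 tested rose, 1 fell and 4 did not pass. Of all tested genes 28.7% rose and 28.8% fell. CLDN4, among those that rose, had 19, 10 and 20 counts in controls and 24, 30 and 28 after HOTAIR-N siRNA. As with NLRC5, the control libraries alone would not have passed CLDN4 through the filter on low counts. CDH1 (E-cadherin) rose by 1.07 (SE 0.06) and NKX2-1 by 1.02 (SE 0.18), while KRT18 had a log2 fold change of -0.71 (SE 0.06). Of the 3 immune cell markers tested, ITGAM had -0.94 (SE 0.10), and CD14 (-0.24) and CD68 (0.13) did not pass, although CD68 passed at 0.25 without control replicate 1.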
